A study of Mus musculus with 15 samples.

Results

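Complement was followed through 7 genes in mouse heart: C1qa, C1qb and C1qc, which encode the A, B and C chains of the recognition molecule C1q, the protease gene C1ra, the cascade components C4b and C3, and the receptor gene C3ar1. The members were chosen by name, with earlier results of these data known. All 7 symbols were found among the 36653 gene identifiers of the table. Poly(A)-selected RNA was sequenced in 15 libraries, 3 groups of 5, made from the ventricles of mice of the strain C57BL/6 that were wild type and 10 weeks old. AngII plus OA mice carried an implanted subcutaneous pump with angiotensin II (1000 ng/kg/min), a hormone that constricts vessels. They were also given a daily dose of OA, which is oleic acid, the main unsaturated fat of olive oil (160 mg/kg in a volume of 0.3 mL). AngII mice carried a pump with angiotensin II at the same rate, and vehicle mice received saline. The labels call the libraries of a group biological replicates. They do not give the length of treatment, the sex of the mice, whether vehicle mice carried a pump or whether animals were pooled.

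Complement is a cascade of blood and tissue proteins that marks cells and debris for removal. In the classical route, C1q binds a surface and activates the serine proteases C1r and C1s, which cleave C4 and C2, and the enzyme so formed cleaves C3, the step at which all routes join. Macrophages are a main tissue source of C1q, the liver makes most circulating C3 and C4, and fibroblasts and other resident cells also make C1r, C1s, C3 and C4 locally. The fragment C3a signals through the receptor encoded by C3ar1, which myeloid cells carry.

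The FPKM (fragments per kilobase of gene and per M reads) of each library were computed by the authors. Denominators of 24.5 to 28.3 M reads were recovered here from the steps in which low values rise. The 7 members rested on 72 to 13311 recovered reads per library, with C3ar1 at the low end and C3 at the high end. Heart muscle was followed through the summed level of 6 markers, which does not by itself tell ventricle from atrium. This sum was 26758 to 32193 FPKM in AngII plus OA, 14629 to 26922 in AngII and 24539 to 29616 in vehicle hearts. AngII replicate 2 stood apart. It lay at 66.1 on principal component 1, which held 29.0% of the variance, while the other libraries lay between -17.2 and 8.98. It had the lowest heart muscle sum of all 15 libraries. Its summed atrial (3046 FPKM), mesothelial (82.9 FPKM), adipocyte (49.9 FPKM) and B cell (53.3 FPKM) markers were the highest. In the other libraries the atrial sum still ranged from 17.0 FPKM in vehicle replicate 1 to 750 FPKM in vehicle replicate 5. The effect of AngII replicate 2 is given beside the results it touches. Genes of the mitochondrial genome held 42.4% ± 3.10 of all FPKM in AngII plus OA, 41.1% ± 5.20 in AngII and 47.1% ± 2.52 in vehicle hearts (SD, n = 5 each). Since each library is scaled to its total, the FPKM of nuclear genes depend on that share.

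The genes of the C1q chains lie side by side on chromosome 4, C1ra and C3ar1 on chromosome 6, and C3 and C4b on chromosome 17. Promoter sequences of 300 bases, 250 before the start of the gene and 50 from it onward, were taken from RefSeq (build GRCm38.p6), which matched 5 of the 7 members by symbol: C1qb, C1qc, C1ra, C3 and C3ar1. Those of C1qb (chr4:136886151-136886450, minus strand) and C1qc (chr4:136892865-136893164, minus strand) are shown because these chains changed together. Those of C1ra (chr6:124512371-124512670, plus strand) and C3 (chr17:57228087-57228386, minus strand) are shown because their levels ran together across libraries. Each reads 5′ to 3′ in the direction of the gene. Capitals mark GAGGAA or its reverse complement TTCCTC in the C1q chains, and TTGCNNAA on either strand in C1ra and C3.
C1qb: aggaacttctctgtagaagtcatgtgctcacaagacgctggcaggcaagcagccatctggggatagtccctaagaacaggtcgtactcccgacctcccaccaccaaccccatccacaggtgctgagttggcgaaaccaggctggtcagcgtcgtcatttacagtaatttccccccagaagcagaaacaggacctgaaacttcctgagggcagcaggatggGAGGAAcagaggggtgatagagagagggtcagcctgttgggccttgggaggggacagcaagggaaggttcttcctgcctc
C1qc: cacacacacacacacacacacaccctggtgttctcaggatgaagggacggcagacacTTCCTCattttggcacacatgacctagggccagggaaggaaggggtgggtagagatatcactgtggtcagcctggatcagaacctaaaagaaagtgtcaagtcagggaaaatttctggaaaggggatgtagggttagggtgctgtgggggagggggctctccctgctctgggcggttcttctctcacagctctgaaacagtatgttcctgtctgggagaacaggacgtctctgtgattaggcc
C1ra: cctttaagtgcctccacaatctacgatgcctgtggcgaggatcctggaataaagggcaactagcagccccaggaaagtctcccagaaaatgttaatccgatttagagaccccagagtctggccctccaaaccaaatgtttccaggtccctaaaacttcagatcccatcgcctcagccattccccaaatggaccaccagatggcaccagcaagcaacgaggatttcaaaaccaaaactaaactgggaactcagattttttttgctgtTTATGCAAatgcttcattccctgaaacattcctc
C3: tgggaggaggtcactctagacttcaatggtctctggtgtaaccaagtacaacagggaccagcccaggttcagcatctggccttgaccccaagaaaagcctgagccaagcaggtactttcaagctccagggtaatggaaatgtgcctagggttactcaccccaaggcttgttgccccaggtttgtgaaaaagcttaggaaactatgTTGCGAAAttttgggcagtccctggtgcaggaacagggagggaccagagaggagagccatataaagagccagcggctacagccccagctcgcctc

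Motifs were searched as letters on both strands, and a match is a description, not a site. GAGGAA, the core letters of sequences bound by the myeloid factor PU.1, matched at bases -30 to -25 of C1qb and at bases -193 to -188 of C1qc, counted from the start of the gene. It also lay at bases 45 to 50 of C1ra, and 28.3% of 32851 mouse promoter windows of the same length held it. TTGCNNAA, a pattern of C/EBP type, matched at bases -45 to -38 of C3 and at bases 17 to 24 of C1ra, and 10.8% of windows held it. TTCNNNGAA, a pattern of STAT type found in 8.30% of windows, matched at bases 33 to 41 of C1ra. A paired-core pattern of interferon regulatory factor type, found in 3.44% of windows, was in none of the 5 member windows. That of C3ar1 held none of the 4 patterns. The TTGCNNAA match of C1ra ends before its TTCNNNGAA match begins, and none of the matches overlap.

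Among the members, C1qa was the most abundant per length, with a mean of 102 FPKM over the 15 libraries and rank 390 among all identifiers. C1qb followed with 79.5 FPKM, C3 with 49.9, C1qc with 37.5, C1ra with 12.7, C4b with 11.0 and C3ar1 with 2.26 FPKM. The order C1qa above C1qb above C1qc held in 15 of 15 libraries. C1qb was above C3 in 13 of 15 libraries, C3 above C1qc in 11 and C1ra above C4b in 12, so these neighbours changed places. C1qc was above C1ra, and C4b above C3ar1, in all 15.

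**Figure D1:**
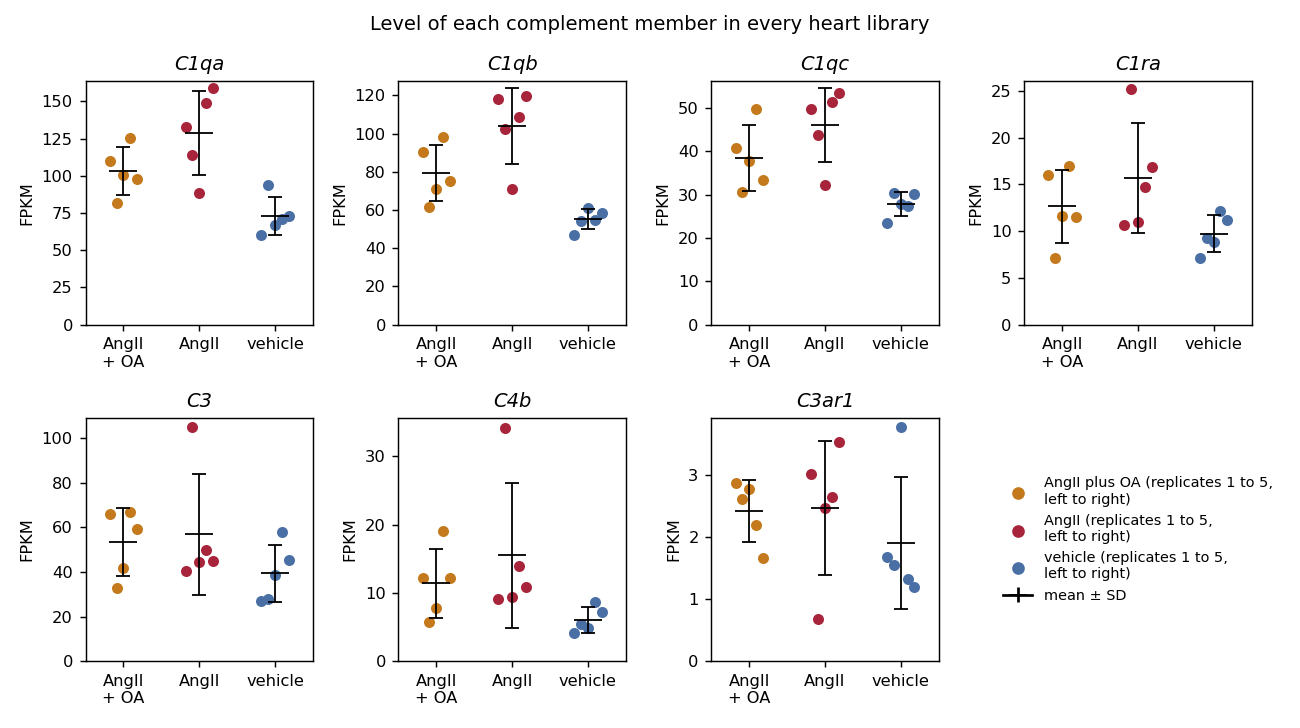
FPKM (y axis, linear) of each of the 7 complement genes in every library, for AngII plus OA, AngII and vehicle hearts from left to right. Points are libraries, and bars give the mean and SD (n = 5 each). The AngII points of C1qb and C1qc all lie above the vehicle points, AngII replicate 2 stands out for C1ra, C3 and C4b, and vehicle replicate 3 stands out for C3ar1.

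AngII against vehicle asks which complement transcripts differed in hearts under angiotensin II. The genes of all C1q chains rose, by 1.66-fold to 1.88-fold in mean FPKM, while C1ra, C4b, C3 and C3ar1 did not pass the test. In all, 3 of the 7 members were called higher and 0 lower by limma at a Benjamini-Hochberg adjusted p under 0.05, where 1.27% of the 13121 genes tested were called higher. The members were chosen with earlier results of these data known, and the 3 chains ran together, so this count is a description. The median change of the 7 members was 0.70 on the log2(FPKM + 1) scale and that of all genes tested 0.07. All 7 members passed the filter, a mean of at least 0.5 FPKM over the 15 libraries.

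C1qb encodes the B chain. It was at 118, 103, 70.8, 109 and 119 FPKM in AngII hearts, against 47.1, 54.4, 61.1, 54.9 and 58.7 FPKM in vehicle hearts. Every AngII library lay above every vehicle library, with AngII replicate 3 the closest. The mean was 104 ± 19.7 FPKM in AngII and 55.2 ± 5.33 FPKM in vehicle hearts (SD, n = 5 each), a log2 change of 0.88 (SE 0.15, 95% interval 0.55 to 1.21, limma adjusted p = 0.0148). The call held in each of the 19 alternative fits, among them all 10 that left out 1 library (log2 change 0.83 to 1.01, adjusted p at most 0.0470).

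C1qa encodes the A chain. Its FPKM were 133, 114, 88.6, 149 and 159 in AngII hearts, against 60.6, 94.1, 67.2, 71.1 and 72.8 in vehicle hearts. The groups overlapped through AngII replicate 3, which lay below vehicle replicate 2. The mean was 129 ± 28.1 FPKM in AngII and 73.2 ± 12.6 FPKM in vehicle hearts, a log2 change of 0.79 (SE 0.17, limma adjusted p = 0.0304).

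C1qc encodes the C chain. It stood at 49.7, 43.8, 32.3, 51.5 and 53.4 FPKM in AngII hearts, against 23.5, 30.3, 27.8, 27.4 and 30.1 FPKM in vehicle hearts. The groups did not overlap, though AngII replicate 3 came close to the vehicle range. The mean was 46.2 ± 8.52 FPKM in AngII and 27.8 ± 2.73 FPKM in vehicle hearts, a log2 change of 0.70 (SE 0.15, limma adjusted p = 0.0335).

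The calls of C1qa and C1qc were close to the threshold. Leaving out 1 library ended that of C1qa in 7 of 10 fits, with a limma adjusted p of 0.0733, 0.0772 and 0.0855 without AngII replicates 1, 4 and 5, and 0.0609, 0.0600, 0.0675 and 0.0745 without vehicle replicates 1, 3, 4 and 5. It ended that of C1qc in 8 of 10, with 0.0817, 0.0875 and 0.0928 without AngII replicates 1, 4 and 5, and 0.0667, 0.0600, 0.0600, 0.0738 and 0.0698 without vehicle replicates 1, 2, 3, 4 and 5. Without AngII replicate 2 all 3 chains remained called, with adjusted p = 0.0311 for C1qa, 0.0202 for C1qb and 0.0399 for C1qc. With FPKM rescaled without mitochondrially encoded genes, C1qb had a log2 change of 0.80 (adjusted p = 0.0229), C1qa 0.71 (0.0394) and C1qc 0.62 (0.0529), so that C1qc no longer passed. That setting also brings every library to a common total. This changes the weight of the added 1 in log2(FPKM + 1), mostly for low genes.

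C1ra encodes one of the mouse C1r proteases. It was at 10.7, 25.2, 11.0, 14.8 and 16.9 FPKM in AngII hearts, against 7.18, 9.27, 8.85, 12.2 and 11.2 FPKM in vehicle hearts. AngII replicate 2 was the highest of all libraries, and 3 of the 5 AngII libraries lay above the vehicle range. The log2 change was 0.59 (SE 0.24, limma adjusted p = 0.219), and 0.42 without AngII replicate 2 (adjusted p = 0.331). C1rb, a close relative of C1ra, did not exceed 0.0158 FPKM in any library, and how reads shared by the pair were handled is not given in the sources used here.

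C4b encodes complement C4. It stood at 9.08, 34.1, 9.48, 14.0 and 10.9 FPKM in AngII hearts, against 4.13, 5.51, 4.82, 8.71 and 7.29 FPKM in vehicle hearts. Every AngII library lay above every vehicle library, and AngII replicate 2 was far above the other libraries. C4b had the widest interval of the members, with a log2 change of 1.08 (SE 0.34, 95% interval 0.37 to 1.79), and it did not pass (limma adjusted p = 0.123). Without AngII replicate 2 the change was 0.76 (adjusted p = 0.145). The near-identical gene C4a averaged 0.110 FPKM in AngII and 0.0788 FPKM in vehicle hearts, so the split of reads between C4a and C4b is uncertain. Groups that do not overlap in this direction were seen for 3 of the 7 members, C1qb, C1qc and C4b, and for 3.13% of all genes tested.

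C3 encodes the component that every complement route cleaves. Its FPKM were 40.4, 105, 44.3, 49.9 and 44.8 in AngII hearts, against 27.1, 28.1, 38.6, 58.1 and 45.2 in vehicle hearts. The groups overlapped: apart from AngII replicate 2, all AngII libraries lay below vehicle replicate 4. The log2 change was 0.48 (SE 0.28, 95% interval -0.12 to 1.07, limma adjusted p = 0.411), and 0.24 without AngII replicate 2 (adjusted p = 0.652).

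C3ar1 encodes the receptor for C3a. It was at 3.01, 0.679, 2.46, 2.64 and 3.53 FPKM in AngII hearts, against 1.68, 1.54, 3.76, 1.32 and 1.20 FPKM in vehicle hearts. AngII replicate 2 was the lowest of all libraries and vehicle replicate 3 the highest, while the other 4 AngII libraries lay above the other 4 vehicle libraries. The log2 change was 0.24 (SE 0.25, 95% interval -0.29 to 0.77, limma adjusted p = 0.674). It was 0.48 without AngII replicate 2 (adjusted p = 0.198) and 0.44 without vehicle replicate 3 (adjusted p = 0.363). With both left out it was 0.68 and passed (adjusted p = 0.0287). That pair was left out after its C3ar1 values had been seen, so this p does not count as a test of C3ar1.

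**Figure D2:**
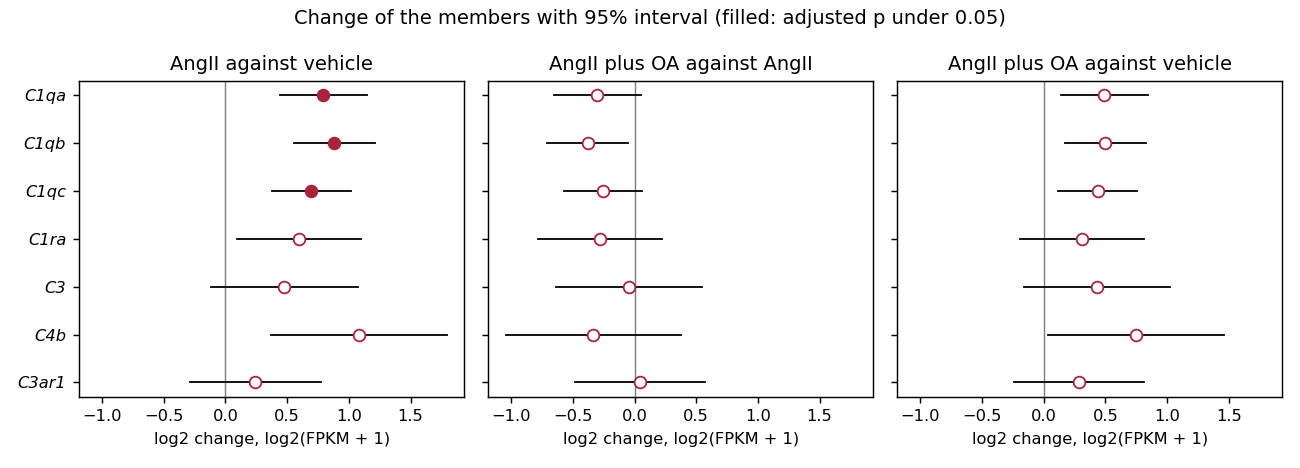
Log2 change on the log2(FPKM + 1) scale (x axis) of the 7 complement genes in the 3 comparisons, with 95% intervals from limma. Filled points have an adjusted p under 0.05. The filled points are C1qa, C1qb and C1qc in AngII against vehicle, at 0.79, 0.88 and 0.70.

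The comparison of AngII plus OA with AngII concerns the addition of oleic acid to angiotensin II. No daily dose or volume is listed for AngII mice, so dosing itself may also differ between these groups. It shares the AngII libraries with the comparison of AngII against vehicle. No complement gene passed. The comparison called 0 of the 7 members, and 0% of the 13121 genes tested, at a limma adjusted p under 0.05, while 866 genes and, of the members, C1qb alone had an unadjusted p under 0.05. The members' median change was -0.28 and that of all genes -0.05 on the log2 scale.

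The C1q chains averaged less in AngII plus OA hearts, within the spread of the libraries. C1qb was at 90.5, 61.8, 71.1, 98.0 and 75.1 FPKM in AngII plus OA hearts, beside the AngII values given above. All 5 lay below the AngII median, but only replicate 2 lay below the whole AngII range. The mean was 79.3 ± 14.7 FPKM in AngII plus OA and 104 ± 19.7 FPKM in AngII hearts, a log2 change of -0.38 (SE 0.15, 95% interval -0.71 to -0.05, unadjusted p = 0.0257, limma adjusted p = 0.737).

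C1qa was at 109.7, 81.5, 100.5, 126 and 97.9 FPKM in AngII plus OA hearts, with a log2 change of -0.30 (95% interval -0.66 to 0.05, limma adjusted p = 0.738). C1qc was at 40.9, 30.5, 37.7, 49.9 and 33.3 FPKM, with a log2 change of -0.26 (95% interval -0.58 to 0.06, limma adjusted p = 0.751). AngII plus OA replicate 2 was the lowest of its group for every C1q chain and replicate 4 the highest. The same pair of libraries was lowest and highest for C1ra, C4b and C3, genes of the later steps.

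C1ra was at 16.0, 7.14, 11.6, 16.9 and 11.5 FPKM in AngII plus OA hearts, a log2 change of -0.28 against AngII (95% interval -0.78 to 0.22). C4b was at 12.2, 5.84, 7.84, 19.0 and 12.1 FPKM, a change of -0.33 (95% interval -1.05 to 0.38), and without AngII replicate 2 this was -0.02. For C4b 3 of the 5 AngII plus OA libraries lay above the AngII median and 2 lay below the whole AngII range. C3 was at 66.2, 32.6, 41.9, 66.8 and 59.3 FPKM, a change of -0.05 (95% interval -0.64 to 0.55). Its direction was not fixed, since the change was 0.20 without AngII replicate 2. C3ar1 was at 2.86, 2.61, 2.76, 2.19 and 1.66 FPKM, a change of 0.04 (95% interval -0.49 to 0.57), and -0.20 without AngII replicate 2. All 7 members overlapped between the groups, where 1.27% of all genes tested did not.

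AngII plus OA against vehicle shares the AngII plus OA libraries with the comparison above and the vehicle libraries with the first, so its values are not independent of theirs. It called 0 of the 7 members and 0% of the genes tested by limma, and 441 genes had an unadjusted p under 0.05. Among the members these were C1qa, C1qb, C1qc and C4b. C1qb averaged 79.3 ± 14.7 FPKM in AngII plus OA and 55.2 ± 5.33 FPKM in vehicle hearts, a log2 change of 0.50 (95% interval 0.17 to 0.83, unadjusted p = 0.00537, adjusted p = 0.99999). C1qa had 0.49, C1qc 0.44, C4b 0.75, C3 0.43, C1ra 0.31 and C3ar1 0.29, each with the same adjusted p. For C1qb and C1qc every AngII plus OA library lay above every vehicle library, where 0.655% of all genes tested did so. The median of the 7 members was 0.44 and that of all genes 0.02.

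The proportions of the C1q chains were compared across libraries. C1qa per C1qb was 1.31 ± 0.0724 in AngII plus OA, 1.24 ± 0.116 in AngII and 1.33 ± 0.237 in vehicle hearts, and ranged from 1.10 to 1.73 over the 15 libraries. C1qc per C1qb was 0.486 ± 0.0372, 0.445 ± 0.0212 and 0.504 ± 0.0364 in the same groups and ranged from 0.422 to 0.557. The highest proportion of C1qa, 1.73, was in vehicle replicate 2, the library that lay above AngII replicate 3 for C1qa. The next highest was 1.41.

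**Figure D3:**
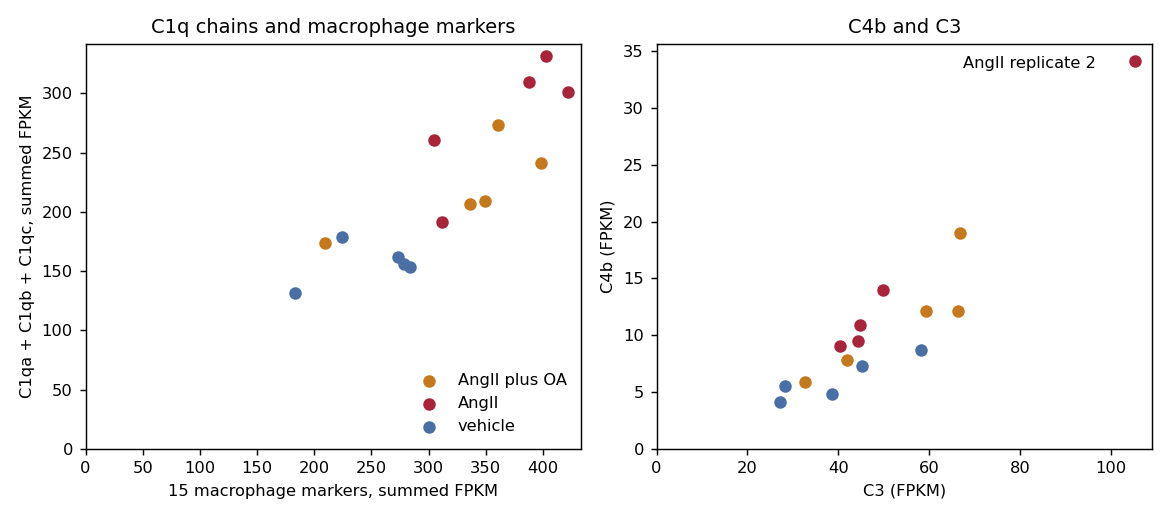
Left, summed FPKM of C1qa, C1qb and C1qc (y axis) against summed FPKM of 15 macrophage markers (x axis). Right, FPKM of C4b (y axis) against FPKM of C3 (x axis). Points are the 15 libraries, coloured by group, and AngII replicate 2 lies at 105 FPKM of C3 and 34.1 FPKM of C4b, away from the others.

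The summed C1q chains were at 221 ± 37.9 FPKM in AngII plus OA, 279 ± 55.0 in AngII and 156 ± 17.1 in vehicle hearts. The summed level of 15 macrophage markers moved with them, at 210 to 398 FPKM in AngII plus OA, 305 to 422 in AngII and 184 to 284 in vehicle hearts. Lyz2, the lysozyme gene of myeloid cells, made up 73.8% of this sum in AngII plus OA, 72.7% in AngII and 72.0% in vehicle hearts. The other 14 markers summed to 72.9 to 97.6 FPKM in AngII plus OA, 77.7 to 118 in AngII and 62.6 to 75.8 in vehicle hearts. None of these markers was at 0 in every library. Of the 15, only the scavenger receptor gene Cd163 passed in AngII against vehicle (8.62 against 4.37 FPKM, log2 change 0.90, limma adjusted p = 0.0424), and it lost that call in 15 of 19 alternative fits, with an adjusted p of 0.0681 without AngII replicate 2. Of the 15, 13 had a change above 0, and the median was 0.31, beside 0.07 for all genes tested, of which 1.27% were called higher. C1q FPKM per macrophage marker FPKM was 0.681 ± 0.106 in AngII plus OA, 0.761 ± 0.0970 in AngII and 0.641 ± 0.110 in vehicle hearts, with overlapping ranges. Per FPKM of the 14 markers other than Lyz2 it was 2.61 ± 0.173, 2.86 ± 0.495 and 2.29 ± 0.313 in the same groups, again with overlapping ranges. The part of macrophage RNA in the C1q difference was not tested, and in bulk tissue more cells of a type and more RNA per cell cannot be told apart.

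The members ran together in 2 sets across the 15 libraries, with 21 pairs compared on log2(FPKM + 1). C1qb and C1qc had a Pearson r of 0.97 and a Spearman rho of 0.95 (permutation p = 1e-05 for each, the smallest that 100000 permutations can give; adjusted p = 5.25e-05 and 7e-05). The r was 0.96 without the 2 libraries farthest from the median and 0.93 after group means were subtracted. Here and below, those 2 libraries were picked on the first-named gene of a pair alone. C1qa ran with C1qc (r 0.97, rho 0.98) and with C1qb (r 0.93, rho 0.925), each with the same permutation p for r and rho. Without the 2 libraries farthest from the median r was 0.96 and 0.90, and within groups it was 0.92 and 0.80.

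The second set was C1ra, C4b and C3. C1ra and C4b had an r of 0.93 and a rho of 0.87 (permutation p = 2e-05 and 9e-05; adjusted p = 8.4e-05 and 0.000315). C3 and C4b had an r of 0.92 and a rho of 0.88 (permutation p = 1e-05 and 5e-05; adjusted p = 5.25e-05 and 0.00021). C1ra and C3 had an r of 0.88 and a rho of 0.88 (permutation p = 4e-05 and 3e-05; adjusted p = 0.00014 and 0.000157). These relations did not rest on AngII replicate 2 alone, without which r was 0.88, 0.86 and 0.81 in that order. Without the 2 libraries farthest from the median it was 0.89, 0.81 and 0.79, and within groups 0.91, 0.93 and 0.88. Atrial markers also differed widely among the other libraries, and their part in these relations was not tested.

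Between the sets, 6 of the 9 pairs passed for both r and rho, those of each C1q chain with C1ra and with C4b, and none with C3 did. The permutations took no account of group, so differences between groups that 2 genes share can make a pair pass. The r within groups was not tested. Over the 9, r was between 0.39 and 0.72, and within groups between 0.10 and 0.58. Without the 2 libraries farthest from the median of the C1q chain it was between 0.33 and 0.87. Some of these pairs then reached the values of pairs within a set. The 2 were picked on the chain alone, so a library far out in C1ra, C3 or C4b could stay in. C1qb and C1ra had an r of 0.72 (rho 0.63, permutation p = 0.00204 and 0.0137; adjusted p = 0.00525 and 0.024), with 0.83 without the 2 farthest libraries and 0.58 within groups. C1qa and C3 had an r of 0.39 (rho 0.45, permutation p = 0.146 and 0.0919; adjusted p = 0.204 and 0.129), with 0.33 without the 2 libraries farthest from the median and 0.10 within groups. C1qb and C4b had an r of 0.72 (rho 0.775, permutation p = 0.0017 and 0.00118; adjusted p = 0.0051 and 0.0031), with 0.87 without the 2 farthest libraries and 0.43 within groups. C3ar1 passed with none of the other 6 members, with r between -0.36 and 0.30 and an adjusted p of at least 0.237 for r and 0.148 for rho. Without AngII replicate 2 its r was 0.47 with C1qa, 0.59 with C1qb and 0.52 with C1qc, against 0.20 with C1ra, 0.01 with C3 and 0.12 with C4b.

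**Figure D4:**
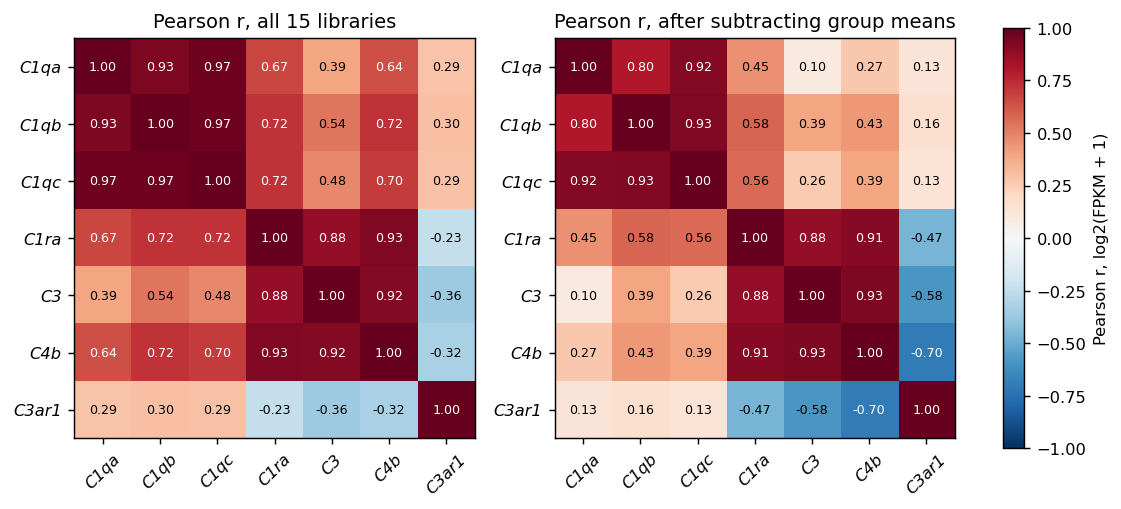
Pearson r between each pair of the 7 complement genes on log2(FPKM + 1), over all 15 libraries (left) and after subtraction of group means (right), with colour from -1 to 1. C1qa, C1qb and C1qc form a block of high values, as do C1ra, C3 and C4b, and C3ar1 stands outside both.

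Among 11301 other genes with a symbol and a mean of at least 1 FPKM, the patterns most like each member were ranked by Pearson r over the 15 libraries, as a description. Closest to the mean of the C1q chains were Ncf4 (r 0.94), which encodes a subunit of the phagocyte NADPH oxidase, and Mpeg1 (0.93), which encodes the pore-forming protein perforin-2 of macrophages. Dio2 (0.92), a thyroid hormone deiodinase, Adamts2 (0.92), a procollagen peptidase, and Ctsz (0.92), a lysosomal cathepsin, came next. Within groups their r was between 0.78 and 0.85. Mpeg1 averaged 8.31 FPKM in AngII and 3.22 FPKM in vehicle hearts, a log2 change of 1.13 (limma adjusted p = 0.0127). Adamts2, Dio2 and Ncf4 were called higher as well (limma adjusted p = 0.0114, 0.0130 and 0.0294), and Ctsz was not (0.0646). The ranking took in the group differences of the C1q chains, so these p do not count as separate tests.

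Closest to C1ra were C1s1 and Serping1. C1s1, which encodes the partner protease C1s, had an r of 0.98, and Serping1, the inhibitor of both proteases, 0.95. Within groups these were 0.97 and 0.93, and without AngII replicate 2 they were 0.96 and 0.92. Itm2b (0.94), Pqlc3 (0.94) and Tm7sf3 (0.92), which encode membrane proteins, came next. C1ra per C1s1 was 1.03 ± 0.0895 in AngII plus OA, 1.01 ± 0.110 in AngII and 0.932 ± 0.0688 in vehicle hearts.

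Closest to C4b were Gng2 (r 0.95), a G protein subunit, the chemokine gene Ccl8 (0.94), Igfbp4 (0.92), which encodes a binding protein of insulin-like growth factors, Ccn5 (0.91), of the matricellular CCN family, and Ptgs1 (0.91), a cyclooxygenase. Ccl8 averaged 16.3 FPKM in AngII and 4.97 FPKM in vehicle hearts (log2 change 1.51, limma adjusted p = 0.0552). It was picked by its likeness to C4b over all groups, so this p is no separate test either. Without AngII replicate 2 the Ccl8 change was 1.29 (adjusted p = 0.0828), and over all its alternatives the adjusted p lay between 0.0373 and 0.135. Closest to C3 were the RNA-binding protein gene Bicc1 (0.93), Enpp6 (0.93), a choline phosphodiesterase, Ahsg (0.91), which encodes the plasma protein fetuin-A, Ctsh (0.91), a lysosomal cathepsin, and Rnase4 (0.90), a secreted ribonuclease. Closest to C3ar1 were the chemokine gene Ccl12 (r 0.90), the collagen gene Col6a3 (0.89), Metrnl (0.88), which encodes a secreted factor, and the nucleoporin gene Nup188 (0.88). All 15 genes ranked nearest to C1ra, C3 and C4b had their highest value in AngII replicate 2, as C1ra, C3 and C4b did. Without that library r was between 0.85 and 0.96 for these 15 genes.

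A list of 51 complement genes, 7 of them the members, set these values in the rest of the cascade. It too was chosen with earlier results of these data known. Of the 51, 30 passed the filter, and in AngII against vehicle 4 were called higher by limma, beside 1.27% of all genes tested, and 0 lower. With libraries shifted to 1 median, 3 were called higher and 1, the regulator gene Cd59b, lower. The median change of the 30 was 0.32, beside 0.07 for all genes tested, and 25 were above 0. Besides the C1q chains the called gene was Itgam, which encodes the alpha chain of complement receptor 3 on myeloid cells. Itgam was at 2.20 ± 0.836 FPKM in AngII and 0.946 ± 0.240 FPKM in vehicle hearts (log2 change 0.69, SE 0.16, limma adjusted p = 0.0396), and the groups overlapped. AngII replicate 2 held the top value, 3.53 FPKM, and without that library the change was 0.56 (adjusted p = 0.0499). The call of Itgam was lost in 13 of 18 alternative fits. Its adjusted p was 0.0675 after quantile normalization, 0.0728 with libraries shifted to 1 median, 0.0666 with FPKM rescaled without mitochondrially encoded genes, 0.105 with no filter, 0.0874 with the replicate block and 0.112 with only the 10 libraries compared. C1qb alone remained called without AngII replicate 1, 4 or 5, or without vehicle replicate 1, 4 or 5, and 2 genes were called without vehicle replicate 2 or 3.

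The highest means of the list over the 15 libraries were those of the regulator genes Clu (144 FPKM) and Serping1 (104 FPKM), closely followed by C1qa (102 FPKM). Clu, which encodes the terminal pathway inhibitor clusterin, averaged 189 ± 109 FPKM in AngII and 111 ± 20.0 FPKM in vehicle hearts (log2 change 0.64, limma adjusted p = 0.200). Serping1 averaged 133 ± 53.3 FPKM in AngII and 75.8 ± 15.6 FPKM in vehicle hearts, without overlap (log2 change 0.76, adjusted p = 0.129). Of all genes tested, 3.13% did not overlap in this direction. The highest values of Clu and Serping1, 383 and 224 FPKM, were both in AngII replicate 2. Without it Clu averaged 140 ± 10.2 FPKM in AngII hearts (SD, n = 4; log2 change 0.35, limma adjusted p = 0.191) and Serping1 111 ± 19.3 FPKM (log2 change 0.55, adjusted p = 0.165). The membrane inhibitor gene Cd59a was at 42.4 ± 4.92 FPKM in AngII and 40.4 ± 3.99 FPKM in vehicle hearts (log2 change 0.07), and its paralog Cd59b at 1.72 ± 0.468 and 2.62 ± 0.262 FPKM in the same groups (log2 change -0.43, adjusted p = 0.0986, and 0.0443 with libraries shifted to 1 median).

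Other routes of activation were represented in part. Of the lectin pathway, Colec11, a soluble collectin, averaged 20.4 FPKM in AngII and 20.0 FPKM in vehicle hearts (log2 change -0.02, and 0.15 without AngII replicate 2), and the protease gene Masp1 averaged 2.08 and 1.18 FPKM in the same groups (log2 change 0.51, adjusted p = 0.110). For Masp1, too, the groups did not overlap. Cfd, factor D of the alternative pathway and an adipocyte product, reached 252 FPKM in AngII replicate 2, the library with the highest adipocyte markers (log2 change 1.35, SE 1.18, adjusted p = 0.608). Without that library the change of Cfd was 0.31 (limma adjusted p = 0.911). Cfb, which encodes factor B, and the terminal components Hc, C8a, C8b and C9 stayed under 0.1 FPKM in every library, among 14 such genes of the 51. C8b and the lectin Mbl1 were at 0 in all 15. Of the markers of hepatocytes, which make C3 and C4, Alb, Apoa1 and Fga reached at most 0.515 FPKM and Serpina1a stayed under 0.1 FPKM in every library, while Ttr lay between 2.27 and 4.39 FPKM. The sum of these markers was highest in AngII replicate 2, at 4.92 FPKM. Ahsg, the plasma protein gene ranked near C3, averaged 14.8 FPKM over all libraries and reached 80.1 FPKM in AngII replicate 2. The part of such transcripts in C3 and C4b was not tested.

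**Figure D5:**
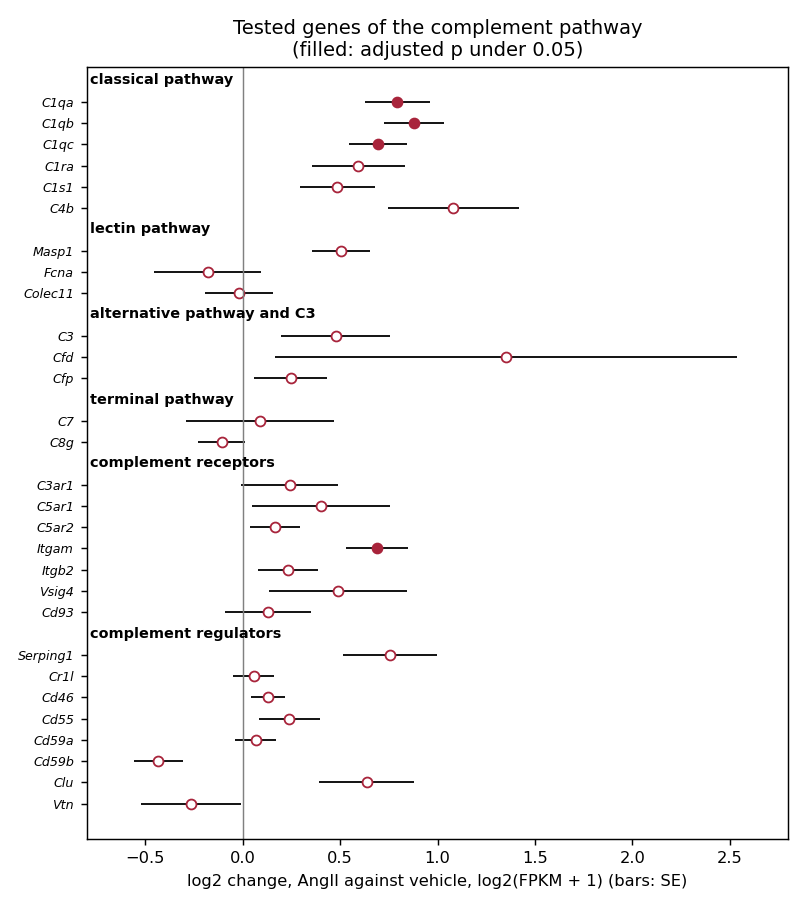
Log2 change of AngII against vehicle on the log2(FPKM + 1) scale (x axis) for the tested genes of the complement list that are reported here, grouped by role, with bars giving the SE from limma. Filled points, with an adjusted p under 0.05, are C1qa, C1qb, C1qc and Itgam.

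In AngII plus OA against AngII, 0 of the 30 listed genes were called by limma and 1 had an unadjusted p under 0.05. Their median change was -0.18, beside -0.05 for all genes, with 5 above 0. In AngII plus OA against vehicle 0 were called by limma and 5 had an unadjusted p under 0.05, with a median of 0.21 and 22 above 0. Itgam averaged 1.58 ± 0.386 FPKM in AngII plus OA hearts, with a log2 change of -0.29 against AngII (limma adjusted p = 0.737) and 0.40 against vehicle (adjusted p = 0.99999).

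Markers of fibroblasts, a source of C1r, C1s, C3 and C4, were also measured. Their sum was 924 to 1975 FPKM in AngII plus OA, 1266 to 1789 in AngII and 814 to 1469 in vehicle hearts. Gsn and Dcn, at means of 587 and 556 FPKM over all libraries, made up most of it. In AngII against vehicle, 2 of the 8 markers were called higher, beside 1.27% of all genes tested. These were the collagen genes Col1a1 (35.2 against 10.7 FPKM) and Col1a2 (32.6 against 10.8 FPKM). All 8 changes were above 0, Gsn at only 0.006, with a median of 0.46 beside 0.07 for all genes tested. Col1a1 lost its call in 8 of 19 alternative fits and Col1a2 in 1, and both kept it without AngII replicate 2. Their part in the values of C1ra, C4b and C3 was not tested. Endothelial markers summed to 145 to 191 FPKM in AngII plus OA, 174 to 218 in AngII and 158 to 177 in vehicle hearts.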

How the data were processed

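The deposited table holds FPKM computed by the authors for 36653 gene identifiers in 15 ventricle libraries. The submitters' processing notes name the aligner HISAT2 2.0.4 and the genome build mm8. How reads were counted, on which annotation and with which strand setting is not given in the sources used here. Symbols were matched by identifier for 36464 genes. The steps in which FPKM rise gave, with summed exon lengths, whole reads for 91.1% to 92.1% of low values (tolerance 0.02) and for every value of the members (tolerance 0.05). Summed over genes, the reads so recovered exceeded the recovered denominator in every library. In AngII plus OA replicate 1 they were 27.8 M against 25.4 M. The reason is not known, so these reads and denominators are approximate. No count test was run.

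Differences were tested in R 4.3.3 by limma 3.58.1, with an intensity trend, on log2(FPKM + 1) over 13121 genes with a mean of at least 0.5 FPKM. The fit held all 15 libraries and no term besides group, and Benjamini-Hochberg adjustment ran over all genes per comparison. Changes are differences on that scale, which understates those of low genes, and run as the first-named group minus the second. Correlations used 2-sided permutation tests over all 15 libraries without regard to group, with ranks and adjustment from scipy 1.17.1. The code was tested on simulated data.

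The members, gene lists and motifs were chosen with earlier results of these data known. The text names all members, listed genes that were called or abundant, and the 5 genes most like each member (for the C1q chains, most like their mean), except 1 listed gene and 1 of those nearest to C3ar1, which are not reported here. Alternatives covered pseudocount (0.1), filter (none, or a mean of at least 5 FPKM), 3 scalings, a replicate block, the libraries fitted and leaving out each library. Fits without AngII replicate 2 for AngII plus OA against vehicle, and without AngII replicate 2 and vehicle replicate 3 together, were added after seeing the data.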

Additional observations from a re-analysis of the deposited data

Results flagged for a closer look

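C3 reached 105 FPKM in AngII replicate 2, while the next highest AngII library had 49.9 FPKM, a gap of 0.854 of the range of the group. C4b reached 34.1 FPKM in the same library, with the next at 14.0 FPKM and a gap of 0.803 of the range. C3ar1 reached 3.76 FPKM in vehicle replicate 3, with the next vehicle library at 1.68 FPKM and a gap of 0.811 of the range. Each stood farther from its group than Dixon's 95% limit for 5 libraries allows, a limit that chance passes in about 1 in 20 groups. AngII replicate 2 also held the highest summed adipocyte, mesothelial, atrial and B cell markers, and the part of these in C3 and C4b was not tested. In vehicle replicate 3, C5ar1, which encodes the receptor for C5a, was at 10.4 FPKM, also the highest of the 15 libraries.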

How the results depend on the processing

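Across the alternatives, C1qb kept its AngII against vehicle call in 19 of 19, C1qa in 8 and C1qc in 5. The members called, 3 in the reported fit, were 1 with no filter, with the replicate block and with only the 10 libraries compared, and 1 to 3 with 1 library left out. Complement list genes called, 4 as reported, were 1 in those same 3 settings, 2 after quantile normalization, 4 with libraries shifted to 1 median (3 higher and Cd59b lower, with the call of Itgam lost), 2 once mitochondrially encoded genes had been left out of the scaling, and 1 to 4 with 1 library left out. All genes called, 197 as reported (166 higher, 31 lower), were 72 with no filter, 109 after quantile normalization (69 higher, 40 lower), 160 with libraries shifted to 1 median (103 higher, 57 lower), 123 with that scaling (86 higher, 37 lower), 38 with the replicate block and 70 with only the 10 libraries compared, and 49 (without AngII replicate 5) to 425 (without AngII replicate 3) with 1 library left out. The replicate numbers share no animal or batch in the labels, and same-numbered libraries deviated with correlations of -0.23 to 0.21 for AngII with vehicle, -0.22 to 0.43 for AngII plus OA with AngII and -0.35 to 0.26 for AngII plus OA with vehicle. Of these 15 pairs 6 were over 0.1 and 3 libraries correlated best with their own number, so the block is an alternative only. In AngII plus OA against AngII or against vehicle all counts were 0 under the alternatives, except 0 to 1 for all genes in AngII plus OA against AngII with 1 library left out (1 lower without AngII replicate 3). C3 in AngII plus OA against AngII turned positive after quantile normalization (0.012), after shifting libraries to 1 median (0.015) and without AngII plus OA replicate 2 (0.11), AngII plus OA replicate 3 (0.03) or AngII replicate 2 (0.20), with a range of -0.14 to 0.20 over the fits without 1 library. C3ar1 there turned negative without AngII plus OA replicate 1 (-0.0040) or AngII replicate 2 (-0.20), with a range of -0.20 to 0.16. The cause was not tested. C3ar1 has no value at a mean of at least 5 FPKM. Depth limits C3ar1 most, at 72 to 416 reads per library.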

Other observations

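C4b FPKM per C3 FPKM was 0.208 ± 0.0440 in AngII plus OA, 0.258 ± 0.0454 in AngII and 0.157 ± 0.0256 in vehicle hearts (SD, n = 5 each). The AngII values lay between 0.214 and 0.325 and the vehicle values between 0.125 and 0.196, without overlap, and AngII replicate 2 had the highest. AngII plus OA hearts lay between 0.179 and 0.284, across both ranges. The ratio was looked at after the values had been seen and was not tested.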
